A study of Mus musculus with 14 samples.

Results

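The 12 mouse osteosarcomas of this series were divided by how much Aif1 RNA their tissue held. Aif1 encodes a calcium-binding protein of macrophages and microglia that takes part in actin remodelling. The groups were chosen by a measured value: tumours whose Aif1 signal was at least 2000 formed the Aif1-high group and all others the Aif1-low group. This placed 5 of the 12 osteosarcomas, numbers 1, 2, 3, 4 and 8, in the Aif1-high group and 7, numbers 5, 6, 7, 9, 10, 11 and 12, in the Aif1-low group, out of 14 samples in all. The numbers follow the order of deposit and only name the tumours.

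Tumours of both groups arose in p53+/- mice, so no group here is free of the p53 deficiency. The labels give no age, sex, strain or treatment of the mice, and they do not say whether each tumour came from its own animal, so that p-values measure only the spread between these samples. The other 2 arrays, a tumour labelled rhabdomyosarcoma from a p53+/- mouse and untreated mc3T3, a cultured non-tumorigenic osteoblast line, had 1 array each and entered no test. RNA was taken from tumour tissue with no sorting of cells named in the labels, so in all results below a larger number of cells of a type and more RNA per cell cannot be told apart.

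Macrophages enter tumours mostly as blood monocytes drawn by chemokines and are kept alive by signalling through the colony-stimulating factor 1 receptor. They engulf antibody-coated and complement-coated material through Fc and complement receptors, kill with a membrane oxidase, and show peptides to helper T cells on MHC class II molecules. In bone tumours they share the tissue with osteoclasts, the bone-resorbing cells that arise from the same monocyte lineage and keep several of its genes, among them Csf1r and Cd68. A tumour can therefore hold much myeloid RNA from either cell type.

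Aif1 signals on the arrays' linear scale were 2638 in osteosarcoma 1, 2943 in 2, 2428 in 3, 3077 in 4 and 2310.0 in 8. In the Aif1-low tumours they were 1307 in osteosarcoma 5, 1399 in 6, 493 in 7, 1541 in 9, 1706 in 10, 455 in 11 and 517 in 12. The values nearest the threshold were 2310.0 just inside and 1706.4 just outside. The Aif1-low group was not uniform: osteosarcomas 7, 11 and 12 lay under 1000 and the other 4 above it. The single Aif1 probe set had a signal of 54.5 in mc3T3 and 6076 in the rhabdomyosarcoma, which exceeded all 12 osteosarcomas.

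Adgre1 encodes F4/80, a surface receptor of mature mouse macrophages, and was not used to choose the groups. Its signals were 2939, 3654, 2843, 1529 and 1446 in osteosarcomas 1, 2, 3, 4 and 8, the order used for the Aif1-high tumours throughout, and 684 to 1728 (median 997) in the Aif1-low tumours. Osteosarcomas 1, 2 and 3 stood above every Aif1-low tumour, while 4 and 8 lay within their range. The mean difference, Aif1-high minus Aif1-low on the log2(signal + 30) scale used for every difference here, was 1.05 ± 0.30. An exact permutation test over all 792 ways to pick 5 of the 12 tumours gave a two-sided p of 0.0202 for this single value, where the smallest possible was 0.002525. In the limma fit across all genes the Benjamini-Hochberg adjusted p for Adgre1 was 0.388, and over the alternative settings it ran from 0.0516 to 0.926. Of the 5 tumours with the highest Adgre1, 3 belonged to the Aif1-high group.

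**Figure D1:**
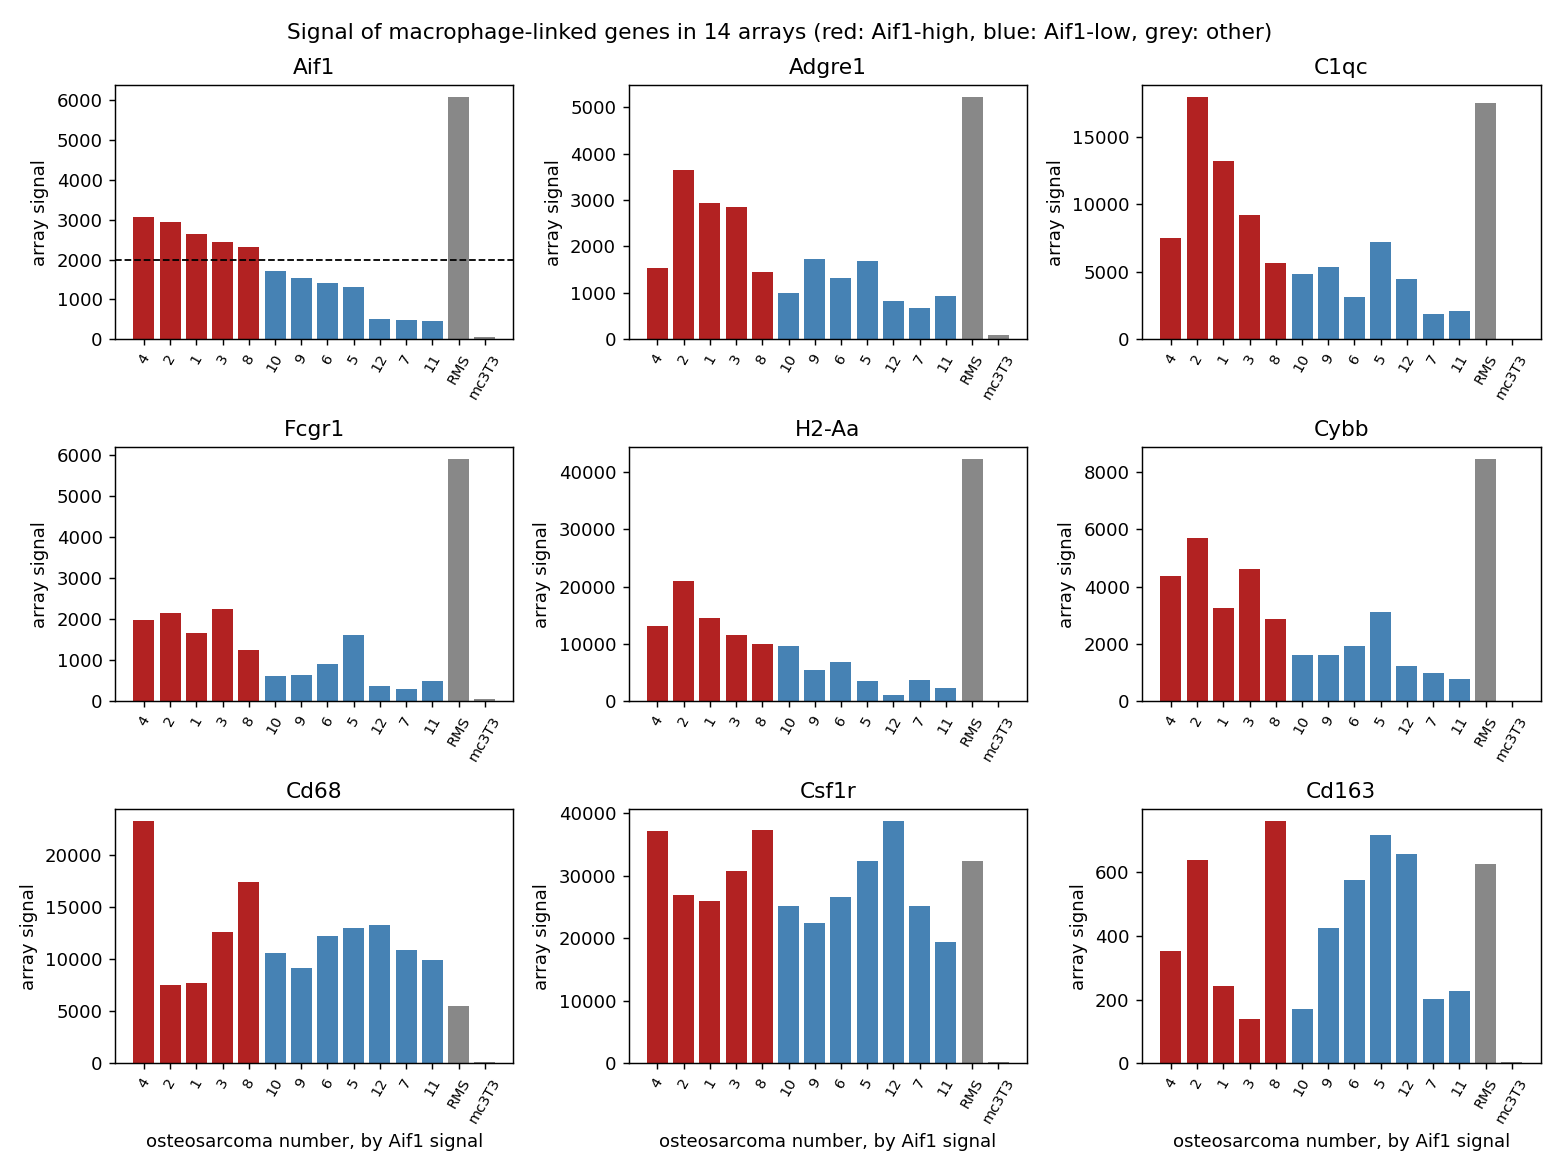
Array signal (linear scale, each panel with its own axis from 0) of 9 genes in all 14 samples, 1 bar per array, tumours ordered by Aif1 signal. The 5 Aif1-high tumours lie between 2310.0 and 3077 for Aif1, but Cd68 and Csf1r do not follow the same order.

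Other macrophage genes were examined to see how far the name macrophage-rich fits the 5 tumours. Of 31 tested genes of macrophage identity and surface receptors, 30 had a mean difference above 0, with a median of 0.96. Across all 11814 tested genes 54.8% had a difference above 0 and the median was 0.03. None of the list passed the test on the split. Among its 31 tested genes the groups did not overlap in Cd86, a co-stimulator of T cells, where 0.449% of all tested genes had every Aif1-high tumour above every Aif1-low tumour. The list's mean log2 level ran from 10.43 to 11.06 in the Aif1-high and from 9.11 to 10.81 in the Aif1-low tumours, against 6.21 in mc3T3. The 10.81 was that of osteosarcoma 5, above every Aif1-high tumour but osteosarcoma 2.

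Among the macrophage markers, Cd68, Csf1r and Cd163 overlapped widely between the groups. Cd68, a lysosomal protein of macrophages and osteoclasts, had signals of 7724, 7551, 12604, 23230.0 and 17370.0 against 9154 to 13276 (median 10897), a difference of 0.15 ± 0.27. For Csf1r, the receptor for colony-stimulating factor 1, they were 25921, 26818, 30736, 37043 and 37205 against 19401 to 38701 (median 25113), a difference of 0.24 ± 0.19. Cd163, the scavenger receptor for haemoglobin complexes, gave 243, 638, 141, 352 and 761 against 172 to 717 (median 425), a difference of -0.03 ± 0.44. The highest Csf1r signal of all 12 tumours was in osteosarcoma 12, an Aif1-low tumour. Osteoclasts share Cd68 and Csf1r, so their overlap is no measure of macrophages alone, and 30 of the 31 list genes had a difference above 0. The 5 tumours are called Aif1-high here, after the value that chose them, rather than macrophage-rich.

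Mrc1, the mannose receptor, reached 6349, 7148, 3998, 3615 and 3301 in the Aif1-high and 625 to 6012 (median 1751) in the Aif1-low tumours, a difference of 1.21 ± 0.45. The highest Aif1-low signal was that of osteosarcoma 5, so the groups overlapped. Lyz2, the lysozyme of myeloid cells, gave 28922, 34639, 23755, 25276 and 13468 against 4275 to 26010.0 (median 13348), with osteosarcoma 8 low in its group. Ptprc, the CD45 phosphatase carried by all leukocytes, gave 3491, 3880.2, 4966, 8698 and 6902 against 2182 to 5179 (median 3476). The largest difference in the macrophage list belonged to Gpr34, a lysophosphatidylserine receptor, with 1171, 689, 674, 682 and 300.2 against 54 to 652 (median 194), a difference of 1.54 ± 0.43 and a limma adjusted p of 0.387. P2ry6, the UDP receptor that triggers engulfment, followed with 1746, 2472, 1462, 1061 and 1030.4 against 229 to 1164 (median 614), a difference of 1.40 ± 0.34.

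No gene passed the test on the split. Limma called 0 genes higher in the Aif1-high tumours (0.0% of 11814) and 0 lower (0.0%) at an adjusted p under 0.05 and a difference of at least 1. At an unadjusted p under 0.05 there were 623 genes (5.27%), of which 470 had the larger mean in the Aif1-high tumours and 153 the smaller. The lowest adjusted p was 0.303, shared by 30 genes. By size alone, 187 genes had a difference of at least 1 and 54 of at most -1. Over the 27 alternative settings, 0 genes passed in all but the fit on continuous Aif1 described further on.

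Genes whose groups did not overlap describe the same values in another way. In 53 genes (0.449% of those tested) every Aif1-high tumour lay above every Aif1-low tumour, and in 6 genes (0.0508%) every one lay below. The 31 gene lists held 521 of the 11814 tested genes and 12 of these 59, which is 2.3% of the tested list genes against 0.499% of all tested genes: Cd86, Coro1a, Lst1, Cd48, Vav1, Slc11a1, Irf8, Tlr1, Ccr2, Il10ra, H2-Aa and H2-DMa. For Il10ra, only Aif1-high osteosarcomas reached the signal of 200 needed to be tested. The lists were chosen with earlier results of these data known, so the larger share is a description and no test. Among the genes above were the haematopoietic adaptors and signalling proteins Fyb, Hcls1, Sash3, Themis2, Lat2, Vav1, Dok2, Samsn1 and Myo1f, named after their values were seen. The 6 below were Epha4, Mfsd4b1, Fkbp14, Aqp1, Gpcpd1 and Yipf4, also named after their values were seen.

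**Figure D2:**
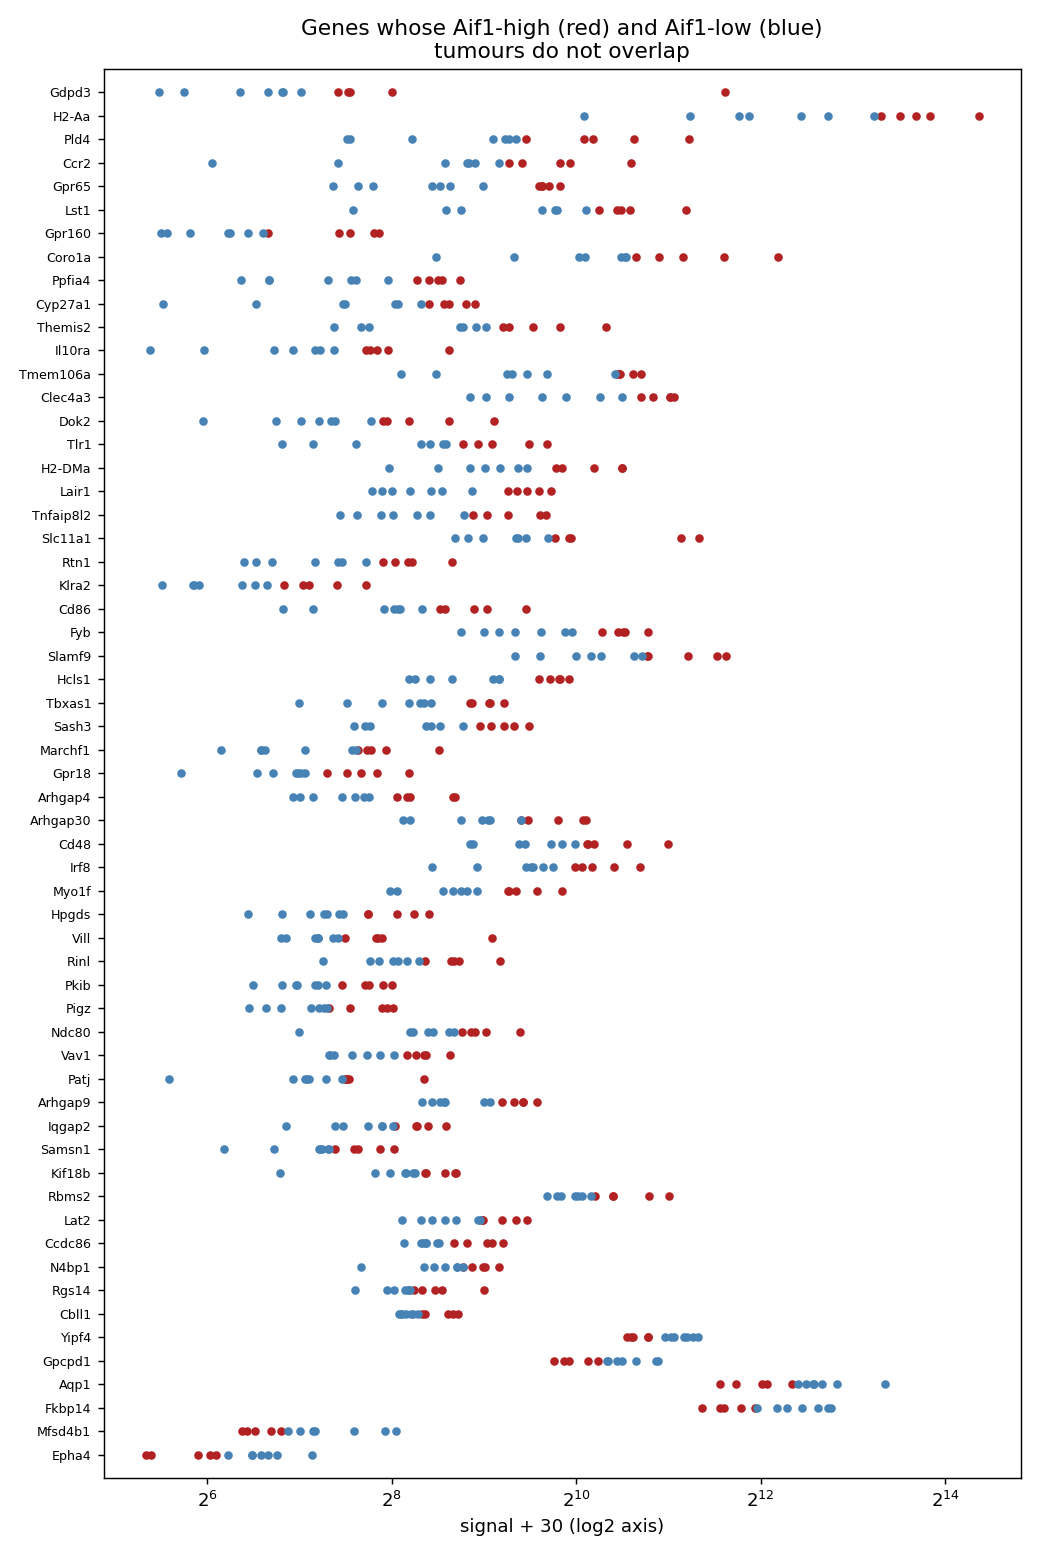
Signal + 30 on a log2 axis in each Aif1-high (red) and Aif1-low (blue) osteosarcoma, 1 point per tumour, for the 59 genes whose groups did not overlap, ordered by their difference. It runs from 2.01 in Gdpd3 at the top, where osteosarcoma 2 stands alone at 3114, to -0.87 in Epha4 at the bottom; none passed the adjusted threshold.

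The 6 genes of lowest p among differences of at least 1 are given as values because none passed. Lair1, an inhibitory receptor for collagen on leukocytes, had signals of 679.8, 817, 584, 625 and 745 against 190.1 to 439 (median 264), a difference of 1.23 ± 0.20 and a limma adjusted p of 0.303. Gpr65, a proton-sensing receptor of leukocytes, had 760.0, 880.3, 761, 745 and 804 against 135 to 478 (median 316), a difference of 1.48 ± 0.26. Both separated the groups fully, with the 3 tumours of lowest Aif1 at the bottom. Fyb, an adaptor linking receptors to integrins, gave 1209.6, 1450.0, 1371, 1432 and 1732 against 400.3 to 959 (median 616), and Tnfaip8l2, a negative regulator of immune receptor signalling, 751, 788, 442, 582 and 494 against 144 to 409 (median 229). Gpr160 was dim, with 71, 203, 158, 194 and 142 against 15 to 67 (median 45); of the osteosarcomas number 2 alone reached the signal of 200 needed to be tested, as did the rhabdomyosarcoma at 656. Susd3 was the only one of these 6 whose groups overlapped, with 241, 198, 208, 262 and 106 against 16 to 122 (median 54). Its overlap came from osteosarcoma 8, whose signal lay under that of osteosarcoma 5. For Susd3 too, only Aif1-high tumours among the osteosarcomas reached 200.

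MHC class II genes had the largest list median, 1.26, and all 9 tested members of 11 had a difference above 0; none passed. The mean level of the list ran from 10.52 to 11.26 in the Aif1-high and from 8.69 to 10.43 in the Aif1-low tumours. It was 6.68 in mc3T3 and 12.50 in the rhabdomyosarcoma. The ranges of the 2 groups did not meet. Nor did they for the Fc receptor list, the myeloid transcription factors (lowest 9.504 against highest 9.492) or the cell cycle genes (lowest 10.503 against highest 10.485). The class II genes are known to be driven through promoter-proximal boxes read together by a dedicated protein complex, and 1 of these is the Y box. The letters CTGATTGG, the form of the Y box that carries an inverted CCAAT, were searched on both strands from 250 bases before to 50 after each gene's start in RefSeq, a motif chosen after the values were seen. They occurred in 4.1% of 32851 such windows. Of the 9 tested genes 6 had a window, and 3 held the letters. These promoters are shown because the list had the largest median, with the motif in capitals, build GRCm38.p6, each read 5′ to 3′ on the gene's own strand. The strain of the mice is not given in the labels, and class II sequences vary between strains.
H2-Aa (chr17:34287824-34287953, minus strand): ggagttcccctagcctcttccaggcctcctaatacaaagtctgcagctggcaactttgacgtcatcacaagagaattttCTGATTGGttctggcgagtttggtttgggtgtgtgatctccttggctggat
H2-Eb1 (chr17:34305737-34305866, plus strand): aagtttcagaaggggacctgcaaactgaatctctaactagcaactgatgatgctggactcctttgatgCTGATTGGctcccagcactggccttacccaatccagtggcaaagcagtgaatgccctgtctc
H2-Oa (chr17:34092249-34092378, plus strand): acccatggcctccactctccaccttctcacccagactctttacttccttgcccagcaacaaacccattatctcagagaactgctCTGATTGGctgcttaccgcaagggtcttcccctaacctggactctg
The motif began 51 bases before the start in H2-Aa, 62 in H2-Eb1 and 46 in H2-Oa. A match is a string of letters and no measure of binding.

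H2-Eb1, the beta chain of the H2-E molecule, had signals of 7560.0, 13598, 5937, 8568 and 4225 in the Aif1-high and 363 to 5266 (median 1607) in the Aif1-low tumours, a difference of 2.19 ± 0.53 with a limma adjusted p of 0.312. Osteosarcoma 10, the Aif1-low tumour with the most Aif1, exceeded osteosarcoma 8. H2-Aa, the alpha chain of H2-A, had 14588, 21080.0, 11614, 13155 and 10072 against 1058 to 9571 (median 3731), a difference of 1.83 ± 0.44; its groups did not overlap, with osteosarcoma 10 again the highest of the low group. Cd74, the invariant chain that guides class II molecules to the endosome, had 15137, 27826, 10726, 10428 and 9428 against 1005 to 10702 (median 3011), a difference of 2.03 ± 0.51. The partner chain H2-Ab1 gave 5748, 9205, 4015, 4532 and 2976 against 546 to 4078 (median 1119). H2-DMa, a chain of the editor that helps load peptide, gave 1415, 1416, 1138, 853 and 888 against 221 to 675 (median 485) with no overlap. Osteosarcoma 2 had the highest signal of all 12 tumours for each of H2-Eb1, H2-Aa, Cd74 and H2-Ab1. H2-Oa, a chain of the inhibitor of that editor, was dim, with 89, 109, 11, 94 and 58 against 4.7 to 55 (median 16). The class II median difference ran from 0.8 to 1.87 over the alternatives that compare groups, and was 1.33 without osteosarcomas 6 and 9.

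Dendritic cells and B cells also carry class II molecules. The dendritic cell list had 7 of 8 tested genes with a difference above 0 and a median of 0.18 (-0.01 without osteosarcoma 4), and its level ran from 8.04 to 9.14 in the Aif1-high and from 7.86 to 8.63 in the Aif1-low tumours. In the B and plasma cell list 4 of 13 genes were bright enough to be tested, all with a difference above 0 and a median of 1.21. Its level ran from 8.27 to 10.23 and from 6.73 to 9.5. Ighm, the heavy chain of IgM, had 2676, 1727, 1384, 5316 and 4437 against 98 to 7648 (median 519.6), and Jchain, which joins IgM and IgA units, 829, 993, 129, 2803 and 641 against 54 to 1128 (median 203). Osteosarcomas 6 and 10 were high for Ighm in the Aif1-low group. With a signal of 200 required on at least 5 osteosarcomas, 4 dendritic cell and 3 B and plasma cell genes remained. The part of these cells in the class II values was not tested.

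Fc receptors, their adaptors and leukocyte integrins were measured as the equipment for engulfing antibody-coated targets. Of 34 tested genes 33 had a difference above 0, with a median of 0.74; the groups did not overlap in 4, Coro1a, Lst1, Cd48 and Vav1, against 0.449% of all tested genes, and none passed. The list's level ran from 10.46 to 10.80 in the Aif1-high and from 9.47 to 10.25 in the Aif1-low tumours. Fcgr1, the high-affinity receptor for IgG, had signals of 1660.2, 2152, 2244, 1979 and 1245 against 297 to 1617 (median 624), a difference of 1.51 ± 0.34. Only osteosarcoma 5 of the low group, the highest there, reached above the lowest Aif1-high tumour. Lst1, a myeloid membrane protein, separated the groups, with 1403, 1362, 1190.1, 2304 and 1505 against 162 to 1075 (median 764). Itgam, the alpha chain of complement receptor 3, gave 433, 554, 361, 276 and 378 against 125 to 415 (median 199.5), a difference of 0.73 ± 0.26, with overlap. Sirpa, the inhibitory receptor that reads CD47 as a signal not to engulf, gave 3775, 3315, 2654, 3902 and 3256 against 1397 to 2948 (median 2285), a difference of 0.73 ± 0.21. Its ligand Cd47, present on most cells, differed by 0.00 ± 0.20, which was less than its spread.

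The oxidase and killing list held 7 tested genes with a median of 0.38, which was 0.68 without osteosarcoma 7. Cybb, the catalytic subunit of the phagocyte oxidase, had 3254, 5707, 4617, 4373 and 2858 in the Aif1-high and 794 to 3118 (median 1613) in the Aif1-low tumours, a difference of 1.43 ± 0.30, and only osteosarcoma 5 of the low group exceeded the lowest high tumour. Slc11a1, the phagosome metal transporter that limits intracellular bacteria, gave 2229, 2557, 959, 846 and 939.9 against 382 to 799 (median 624). Osteosarcomas 1 and 2 stood far above the rest for that gene, while 3, 4 and 8 lay close to osteosarcoma 5. In the complement list 11 of 14 genes had a difference above 0, with a median of 0.68. C1qa, a chain of the recognition molecule C1q that macrophages make, had 16452, 19858, 12460.0, 10490.0 and 7272 against 2536 to 10292 (median 6035), a difference of 1.24 ± 0.33. C1qc gave 13236, 17948, 9212, 7477 and 5655 against 1849 to 7225 (median 4494). In both, osteosarcomas 1, 2 and 3 exceeded every Aif1-low tumour, and osteosarcoma 5 was the highest of the low group. C1qb differed by 1.18 ± 0.30.

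Factors that feed and attract macrophages were examined next. Csf1, the main macrophage growth factor, had signals of 6093, 5379.6, 3588, 5345 and 7281 against 2402 to 5059.9 (median 3720.4), a difference of 0.64 ± 0.22 with a limma adjusted p of 0.624 and overlap between the groups. Il34, the second ligand of the same receptor, was under 200 on every osteosarcoma array and differed by -0.22 ± 0.33. Of 24 tested growth and attracting factors 21 had a difference above 0, with a median of 0.59. Ccl12, a monocyte-attracting chemokine, had 2585, 3371, 2912, 4369 and 1323 against 244 to 2542 (median 978), a difference of 1.59 ± 0.51. Its relatives Ccl2 and Ccl7 gave 2062, 1020.2, 908, 864 and 329.8 against 137 to 1077 (median 391) and 1069.6, 705, 518, 422 and 253 against 25 to 583 (median 282), all 3 with overlapping groups. mc3T3 cells had 2170 for Ccl2 and 1621 for Ccl7, where Aif1 was 54.5.

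Ccr2, the receptor through which monocytes answer those chemokines, separated the groups, with 1516, 945, 879, 590.4 and 653 in the Aif1-high and 36 to 541 (median 421) in the Aif1-low tumours, a difference of 1.56 ± 0.48 and a limma adjusted p of 0.497. Il10ra, a chain of the interleukin-10 receptor, also separated them, with 187, 364, 181, 218 and 199 against 12 to 135 (median 92). Among the osteosarcomas only Aif1-high tumours reached the signal of 200 needed to test Il10ra. Ccr2 was lowest in osteosarcoma 12 and Il10ra in osteosarcoma 7. All 21 tested leukocyte chemokine and cytokine receptors had a difference above 0, with a median of 0.34 (0.22 without osteosarcoma 7, where 19 were above 0).

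Genes of inflammatory and of alternative macrophage activation were set side by side. All 12 tested inflammatory genes had a difference above 0 (median 0.62), against 10 of 18 alternative activation genes (median 0.16); the difference between the lists was not tested, and none of either passed. Without osteosarcoma 4 the inflammatory median was 0.26, and without osteosarcoma 7 the alternative activation median was -0.13. With the 5 tumours of highest Adgre1 against the other 7 the order of the medians turned, to 0.21 for the inflammatory and 0.32 for the alternative activation genes. Cd86, described above, separated the groups with 352, 339, 496, 673 and 446 against 83 to 292 (median 231). Il1b, the cytokine interleukin-1 beta, gave 338, 201, 391, 813 and 265 against 29 to 389.9 (median 169) with overlap. Among the alternative activation genes the galactose-binding lectins Clec10a and Mgl2 had differences of 1.36 ± 0.47 and 1.28 ± 0.35. The inflammatory caspases Casp1 and Casp4 had the largest differences of the sensor list, 1.61 ± 0.55 and 1.67 ± 0.60. Their signals were highest in osteosarcoma 1, at 10714 and 8232, and without that tumour the differences were 1.08 and 1.16. The groups overlapped for both.

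Myeloid transcription factors had a smaller median than the macrophage receptors. It was 0.36, and 14 of 16 genes had a difference above 0. Spi1, the PU.1 factor needed by macrophages and osteoclasts alike, had 1589, 1607, 1407, 2728 and 1594 against 832 to 2006 (median 1523), a difference of 0.35 ± 0.25. Irf5 and Ikzf1, a factor of inflammatory activation and a lymphoid and myeloid zinc finger factor, had differences of 1.10 ± 0.34 and 1.06 ± 0.33. Axl, a receptor for the engulfment of dying cells, gave 2869.9, 2013, 1902, 2705 and 1344 against 502 to 1611 (median 885), a difference of 1.19 ± 0.28. Its signal in mc3T3 was 2737. Pirb, an inhibitory receptor for MHC class I, differed by 0.98 ± 0.31. In the list of lipid, lysosome and iron handling the median was 0.18, with Apoe at 0.74 ± 0.34 and Lpl at 0.78 ± 0.49.

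**Figure D3:**
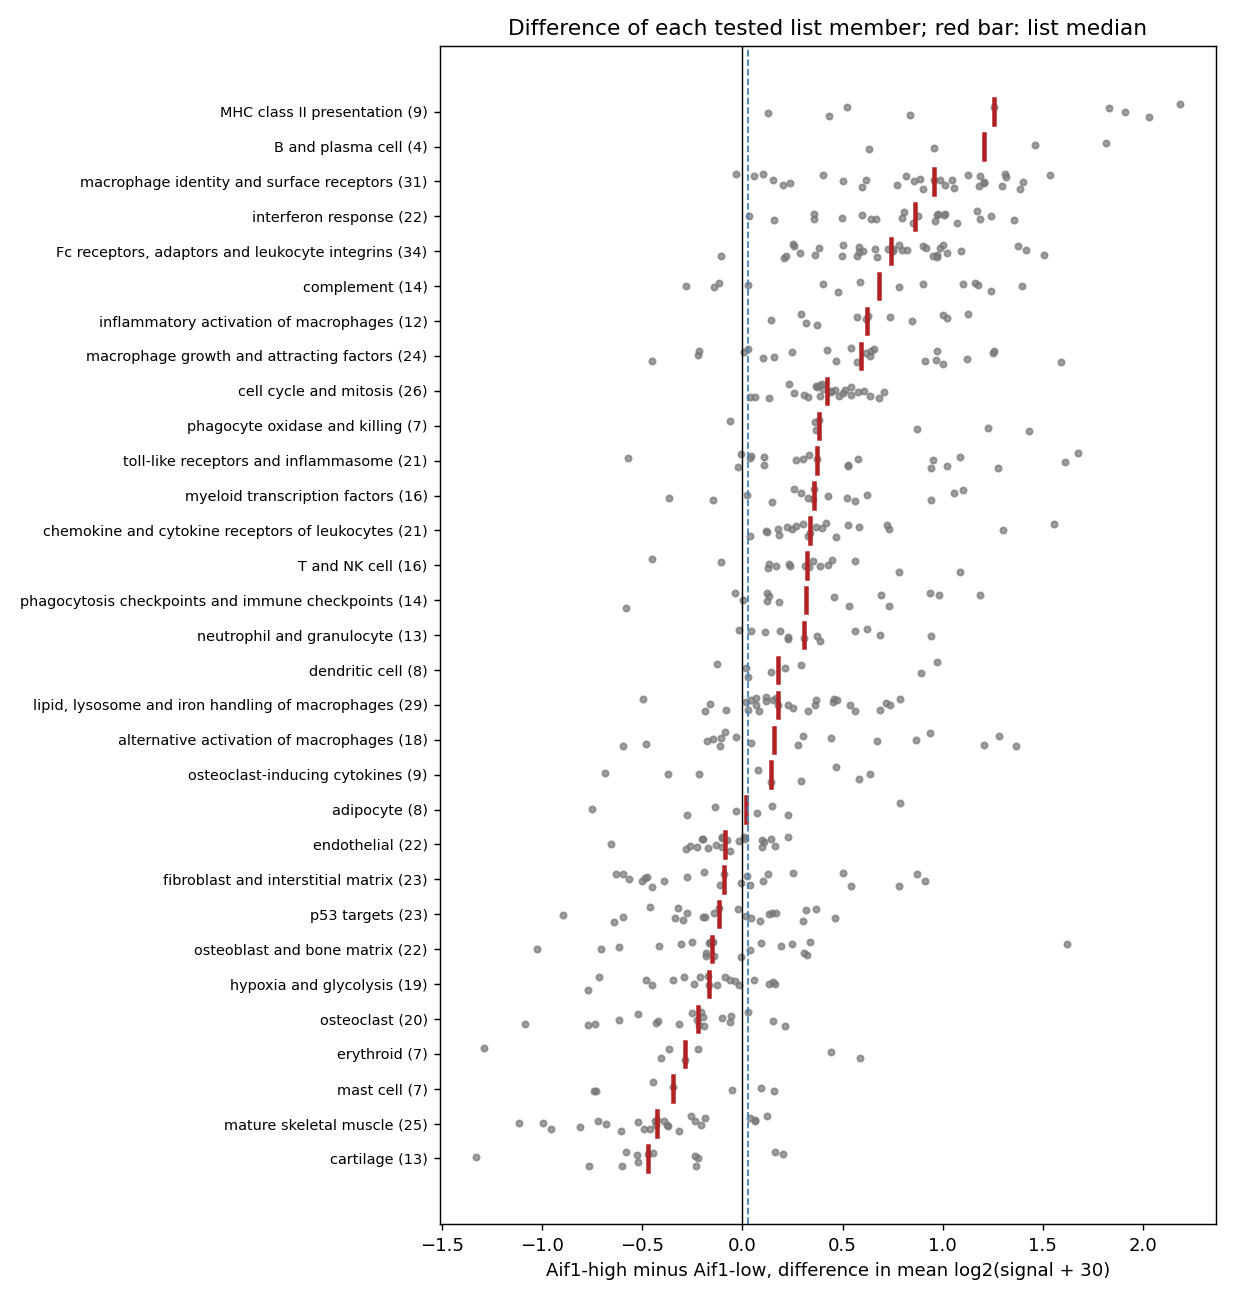
Difference in mean log2(signal + 30), Aif1-high minus Aif1-low, of every tested member of the gene lists (points) with the list medians (red bars); the dashed line is the median over all tested genes, 0.03. The MHC class II median is 1.26 and the osteoclast median -0.22, and 0 members of any list passed the adjusted threshold.

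Interferon-stimulated genes had differences of 1 sign. All 22 tested genes had a difference above 0, with a median of 0.86, and none passed on the split. Oas1a, which makes the activator of an antiviral RNase, had 955, 3719, 1716, 8742 and 1762 against 347 to 2214 (median 1117), a difference of 1.36 ± 0.57. Its relative Oasl2 gave 569.6, 1739, 1196, 3669.6 and 821 against 135 to 1652 (median 734). Osteosarcoma 4 held the highest signal of both, and osteosarcoma 1 lay within the Aif1-low range for both. The list level ran from 9.42 to 11.58 in the Aif1-high and from 8.29 to 10.23 in the Aif1-low tumours and was 9.42 in mc3T3, within the Aif1-low range. Without osteosarcoma 4 the median was 0.46, with 19 of 22 genes above 0, and without osteosarcomas 6 and 9 it was 1.19.

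Markers of other leukocytes were also counted, and none passed. Of 16 tested T and NK cell genes 14 had a difference above 0, with a median of 0.32 and list levels from 7.0 to 7.82 against 6.31 to 7.65; the median was 0.16 without osteosarcoma 4 and 0.51 without osteosarcoma 10. Another 14 of the 30 listed genes, Cd3e and Lck among them, were not tested. When a signal of 200 was required on at least 5 osteosarcomas, 3 T and NK cell genes remained. The same filter left 6 neutrophil, 2 mast cell and 2 erythroid genes, so many values of these lists rest on dim signals. Gzmb, a granule protease of killer cells, had 81, 118, 152, 746 and 109.9 against 4.5 to 155 (median 56). Its highest signal was in osteosarcoma 4, the only osteosarcoma to reach the 200 needed to be tested. Thy1, also made by stromal cells, was highest in osteosarcoma 1 at 6026. For neutrophils 12 of 13 genes had a difference above 0 (median 0.31), but the brightest tumour was in the Aif1-low group: S100a9, a calcium-binding neutrophil protein, reached 19608 in osteosarcoma 6 against 10949 in osteosarcoma 4. The neutrophil median was 0.0 without osteosarcoma 4 (7 of 13 above 0), 0.55 without 1 and 0.72 without 6, and with the 5 tumours of highest Adgre1 it was -0.85 (0 of 13). Mast cell and erythroid lists had medians of -0.35 and -0.29. Without osteosarcoma 6 the erythroid median turned to 0.21, with 6 of 7 genes above 0, and the mast cell median was -0.06 without osteosarcoma 2, -0.09 without 9 and -0.12 without 10. Mast cell proteases Cma1 and Tpsb2 differed by -0.73 ± 0.48 and -0.74 ± 0.41. Alas2, the first enzyme of haem synthesis in red cell precursors, had 869, 228, 437, 140.3 and 26 against 152 to 4541 (median 262), and Epor, the erythropoietin receptor, differed by 0.59 ± 0.20. Their part in the leukocyte genes above was not tested.

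Osteoclast genes had a median below 0. Of 20 tested genes 3 had a difference above 0, with a median of -0.22, and list levels from 10.94 to 12.40 in the Aif1-high and from 11.60 to 12.33 in the Aif1-low tumours. Acp5, the tartrate-resistant phosphatase of osteoclasts, had 26171, 27430.0, 28441, 49259 and 40851 against 30504 to 53850.0 (median 41002), a difference of -0.25 ± 0.21. Ctsk, the collagen-cleaving cathepsin, differed by -0.19 ± 0.19. Car2, the carbonic anhydrase that supplies acid, had 983, 911, 1809, 7801 and 3699.6 against 1559 to 12043 (median 4428), and Oscar, an osteoclast receptor for collagen, 364, 312, 912, 2289 and 2703 against 736 to 2116 (median 1852). In all 3 genes with values by tumour the Aif1-high group was itself divided: osteosarcomas 4 and 8 were high and osteosarcomas 1, 2 and 3 low. The same division, turned round, was seen for Adgre1 and C1qa, where 1, 2 and 3 exceeded 4 and 8, and the same way round for Cd68. The osteoclast median difference ran from -0.58 to -0.10 over the alternatives that compare groups; it was -0.10 without osteosarcoma 2, -0.12 without 1 and -0.41 without 4. Tnfsf11, the RANKL cytokine that drives osteoclast formation, had 482, 546, 477, 2092 and 451 against 569 to 4368 (median 794); the list of osteoclast-inducing cytokines had a median of 0.14, but -0.02 without osteosarcoma 4, 0.01 without 5, -0.36 with the identifier letter as a block (2 of 9 above 0) and -0.38 with the 5 tumours of highest Adgre1.

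**Figure D4:**
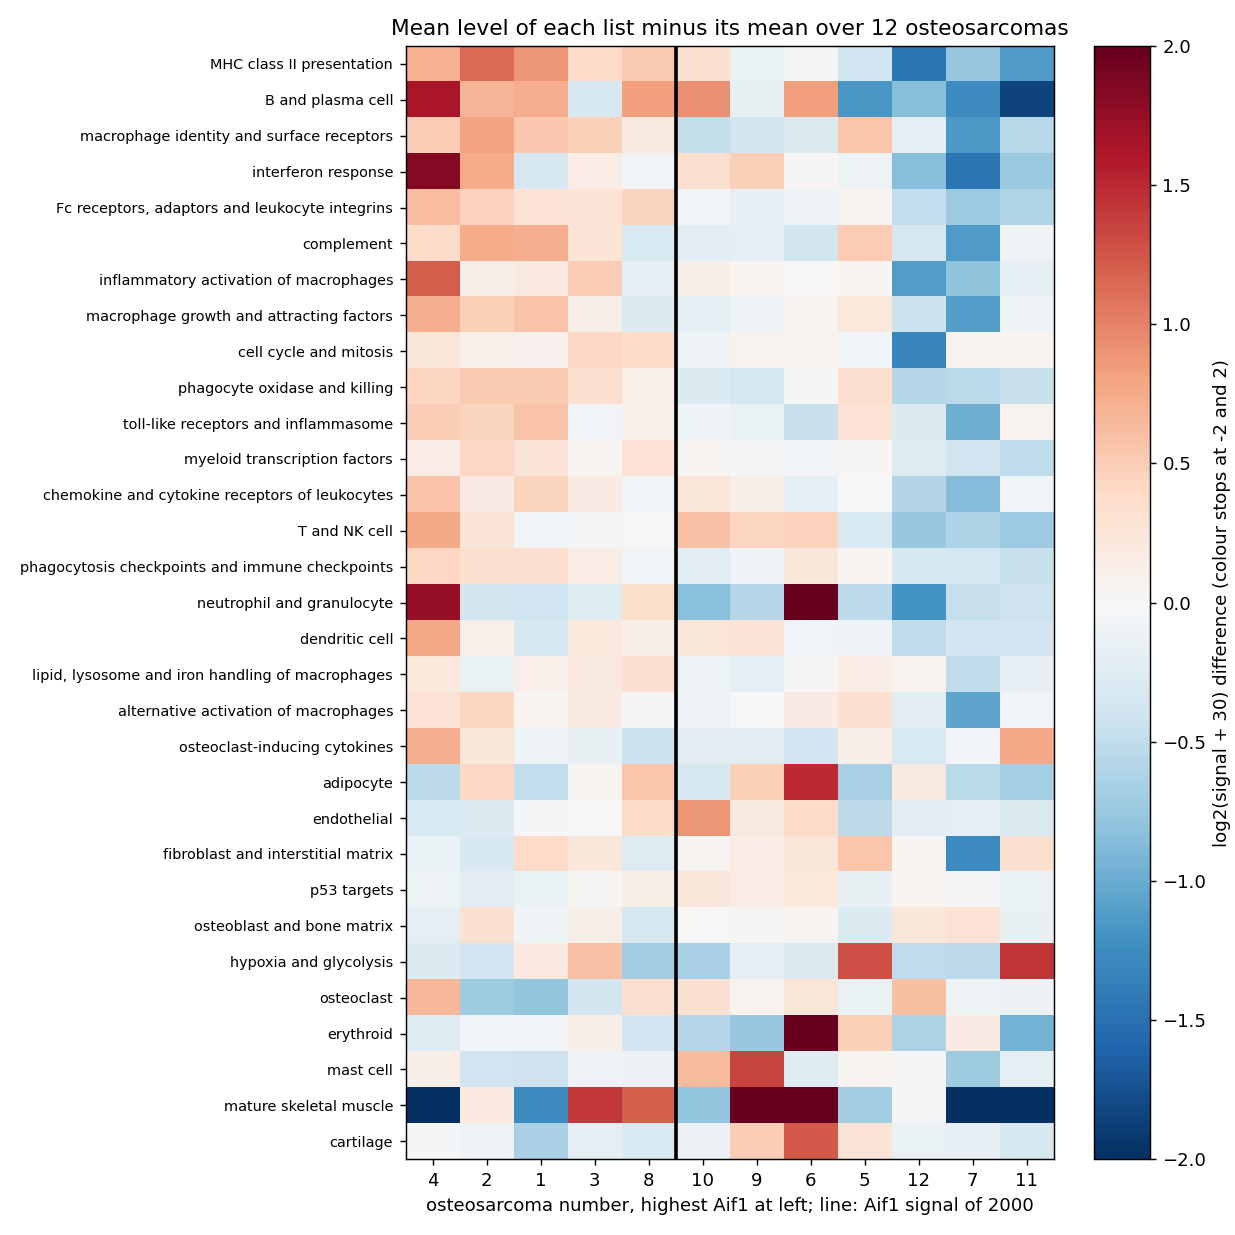
Level of each gene list (mean log2(signal + 30) of its tested members, relative to the mean of the 12 osteosarcomas) by tumour, ordered by Aif1 signal; red is above and blue below the mean, with values past the ends of the colour bar drawn at its end colours. The MHC class II list spans 10.52 to 11.26 in the Aif1-high and 8.69 to 10.43 in the Aif1-low tumours before centring; the osteoclast list divides the Aif1-high tumours.

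Osteoblast and bone matrix genes had a median of -0.15, with 8 of 22 above 0. Ibsp, the bone sialoprotein, had 33057, 41630.0, 30967, 30210.0 and 34377 against 31754 to 49087 (median 37777), a difference of -0.16 ± 0.16. Col1a1, the main collagen of bone, differed by -0.25 ± 0.17 and Alpl, the phosphatase of mineralising cells, by -0.01 ± 0.21. The sign of Alpl changed under quantile normalization, to 0.05. That of Col1a1 changed with the mean of probe sets, with the tumours of highest Adgre1 and among tumours whose identifiers begin with c. All 3 genes were bright in every tumour, the lowest signal among them being 5833 for Alpl in osteosarcoma 4, and their groups overlapped. Sost, the Wnt antagonist of osteocytes, was dim, with 221, 128, 209.8, 235 and 18 against 3 to 48 (median 37), a difference of 1.62 ± 0.41 and a limma adjusted p of 0.312; only Aif1-high tumours reached the signal of 200 needed to be tested. Omd, a keratan sulphate proteoglycan of bone, had 1354, 1752, 6584, 484 and 284 against 466 to 11257 (median 3089.8). Cartilage genes had a median of -0.47, led by Matn3, a matrilin of cartilage matrix, at -1.33 ± 0.51, and by Cytl1 at -0.77 ± 0.57. The cartilage median was -0.29 without osteosarcoma 6, -0.31 without 8 and -0.05 without both 6 and 9.

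Stromal and vascular genes gave small medians: -0.09 for fibroblast and interstitial matrix genes, -0.09 for endothelial genes and 0.02 for adipocyte genes. All 3 changed sign with single tumours left out: fibroblast genes to 0.01 without osteosarcoma 5 and 0.02 without 8, endothelial genes to 0.03 without 2, 0.01 without 4 and 0.06 without 10, and adipocyte genes to between -0.16 and 0.0 without 2, 5, 7, 8, 10 or 11. Col14a1, a collagen of fibrous tissue, had 762, 740.1, 891, 817 and 841 against 203 to 1057 (median 388), and Fbln2, a fibulin of elastic matrix, 8415, 1408, 997, 626 and 157 against 68 to 5933 (median 541). Fbln2 was high in osteosarcoma 1 of one group and osteosarcoma 5 of the other. The vessel genes Pecam1, Vwf and Erg differed by -0.06 ± 0.29, -0.66 ± 0.60 and -0.28 ± 0.25, and the fat and muscle glucose carrier Slc2a4 by -0.75 ± 0.55. Mature skeletal muscle genes had a median of -0.43. Their level ran from 6.72 to 10.93 in the Aif1-high and from 6.81 to 13.67 in the Aif1-low tumours. Aif1-low osteosarcomas 6 and 9 had the highest levels, 13.67 and 12.87, followed by Aif1-high osteosarcomas 3 and 8 with 10.93 and 10.71. Mb, myoglobin, reached 11691 and 13431 in osteosarcomas 6 and 9, and Atp2a1, the calcium pump of fast fibres, 25913 and 14169. Without both the muscle median was 1.07; it was also above 0 without osteosarcoma 6 alone, 0.29, without 9 alone, 0.16, and without 4, 0.22. With the identifier letter as a block it was 1.12, a difference that rests on the tumours with c and m identifiers, because both o tumours are Aif1-high.

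Cell cycle genes had small differences of 1 sign. All 26 tested genes had a difference above 0, with a median of 0.42, and the list level ran from 10.50 to 10.83 in the Aif1-high and from 9.10 to 10.49 in the Aif1-low tumours. None passed. Mcm6, a subunit of the replication helicase, had 3564, 2255, 4196, 3560.4 and 4442 against 1372 to 3211 (median 2349.9), a difference of 0.71 ± 0.24. Ccna2, cyclin A2, gave 1949.9, 2514, 3957, 3299 and 4221 against 747 to 2918 (median 2161), and Mki67, the proliferation marker Ki-67, 1860.0, 2752, 2837, 2366 and 3447 against 556 to 3572 (median 2153). Osteosarcoma 12 had the lowest signal of all 3 genes. Without osteosarcoma 12 the median was 0.21, with 24 of 26 genes above 0, and among tumours whose identifiers begin with c alone it was 0.04. The hypoxia and glycolysis list had a median of -0.17. It turned to 0.03 without osteosarcoma 5, 0.01 without 8 and 0.06 without 11. With the 5 tumours of highest Adgre1 it was 0.56 (19 of 19 above 0). On the Aif1 split the collagen hydroxylases P4ha1 and P4ha2 differed by -0.72 ± 0.48 and -0.77 ± 0.48. The list of p53 targets had a median of -0.12 (0.02 without osteosarcoma 6); Gadd45a and Cdkn1a, which act in growth arrest, had differences of -0.89 ± 0.46 and -0.64 ± 0.41.

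Genes with the smaller mean in the Aif1-high tumours were fewer and came from no single list. Rora, a nuclear receptor of the circadian clock and of lymphoid cells, had 243, 335, 716, 361 and 738 against 665 to 1378 (median 1112), a difference of -1.14 ± 0.28 with a limma adjusted p of 0.312. Scube3, a secreted protein of developing bone, gave 32, 199, 299, 86 and 69 against 209 to 577 (median 385), and Fabp3, the fatty acid carrier of heart and muscle, 1403, 992, 1461, 549.6 and 2046 against 1693 to 3854 (median 2656). Net1, an activator of the RhoA switch, gave 246, 267, 376, 235 and 307 against 338 to 1654 (median 575), highest in osteosarcoma 7. Igdcc4 and Rxrg, the gamma form of the retinoid X receptor, differed by -1.04 ± 0.32 and -1.11 ± 0.35. All 6 overlapped between the groups. Fkbp14, a chaperone of collagen folding in the endoplasmic reticulum, did not overlap, with 3078, 3514, 3895, 2614 and 2986 against 3965 to 6909 (median 5578). Aqp1, a water channel, likewise lay lower in every Aif1-high tumour, with 3386, 4109.8, 5158, 2991 and 4273 against 5393 to 10367 (median 6079.9), and Epha4, an ephrin receptor, was dim in all, with 12, 35, 39, 29.9 and 10.3 against 45 to 111 (median 66).

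Because Aif1 varied within both groups, log2 Aif1 was also fitted as a continuous term over the 12 tumours, an alternative to the split. At an adjusted p under 0.05 limma then called 125 genes rising with Aif1 (1.06% of 11814) and 8 falling (0.0677%). With a slope of at least 1 log2 unit per log2 unit of Aif1 there were 12, namely H2-Eb1, Ms4a4c, Cd74, Ifi27l2a, Ccl12, H2-Aa, H2-Ab1, Oasl2, Pld4, Dhx58, Plbd1 and Oas1a. Without osteosarcomas 7, 11 and 12, the tumours of lowest Aif1, 0 of the 133 genes passed, nor did any other gene by limma (641 at an unadjusted p under 0.05); that leaves 9 tumours and a narrower range of Aif1. Of the 53 genes that lay above on the split 30 also rose with Aif1, and of the 6 that lay below 1, Mfsd4b1, also fell. Both readings come from the same tumours and are not independent.

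By role, 5 of 9 MHC class II genes rose with Aif1, 11 of 34 Fc receptor and adaptor genes, 5 of 31 macrophage identity genes and 3 of 22 interferon genes, against the 1.06% of all genes. So did 2 of 7 oxidase and killing, 2 of 8 dendritic cell, 3 of 14 checkpoint and 3 of 16 myeloid transcription factor genes. None passed among 16 T and NK cell, 13 neutrophil and 4 B and plasma cell genes. Lists this short would mostly hold 0 at a share of 1.06%. Their median slopes were 0.40, 0.41 and 0.82, with 15 of 16, 13 of 13 and 4 of 4 above 0. Median slopes were 0.55 for macrophage identity, 0.71 for MHC class II and 0.03 for all genes. Without osteosarcomas 7, 11 and 12 the T and NK cell, neutrophil and B and plasma cell medians were 0.02, -0.04 and 0.96. The H2-Eb1 slope was 1.39 (limma adjusted p 0.00256), and that of Cd74 was 1.28 (limma adjusted p 0.00371). Ccl12 had a slope of 1.15 (limma adjusted p 0.00371), and Oas1a of 1.05 (limma adjusted p 0.0279). The limma adjusted p over alternatives to the split ran up to 0.721 for H2-Eb1, 0.697 for Cd74, 0.907 for Ccl12 and 1.0 for Oas1a. The lowest value of each range was that of the continuous fit itself. For Adgre1 the slope was 0.60 with an adjusted p of 0.0516 by limma, just outside the threshold. Csf1r, Cd68 and Acp5 had slopes of 0.09, 0.05 and -0.13. The 8 falling genes were Net1, Cry1, Cpe, Fkbp7, Tm4sf1, Ramp3, Mfsd4b1 and 2600006K01Rik; Cry1, a repressor of the circadian clock, fell with a slope of -0.66 and Net1 with -0.66.

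**Figure D5:**
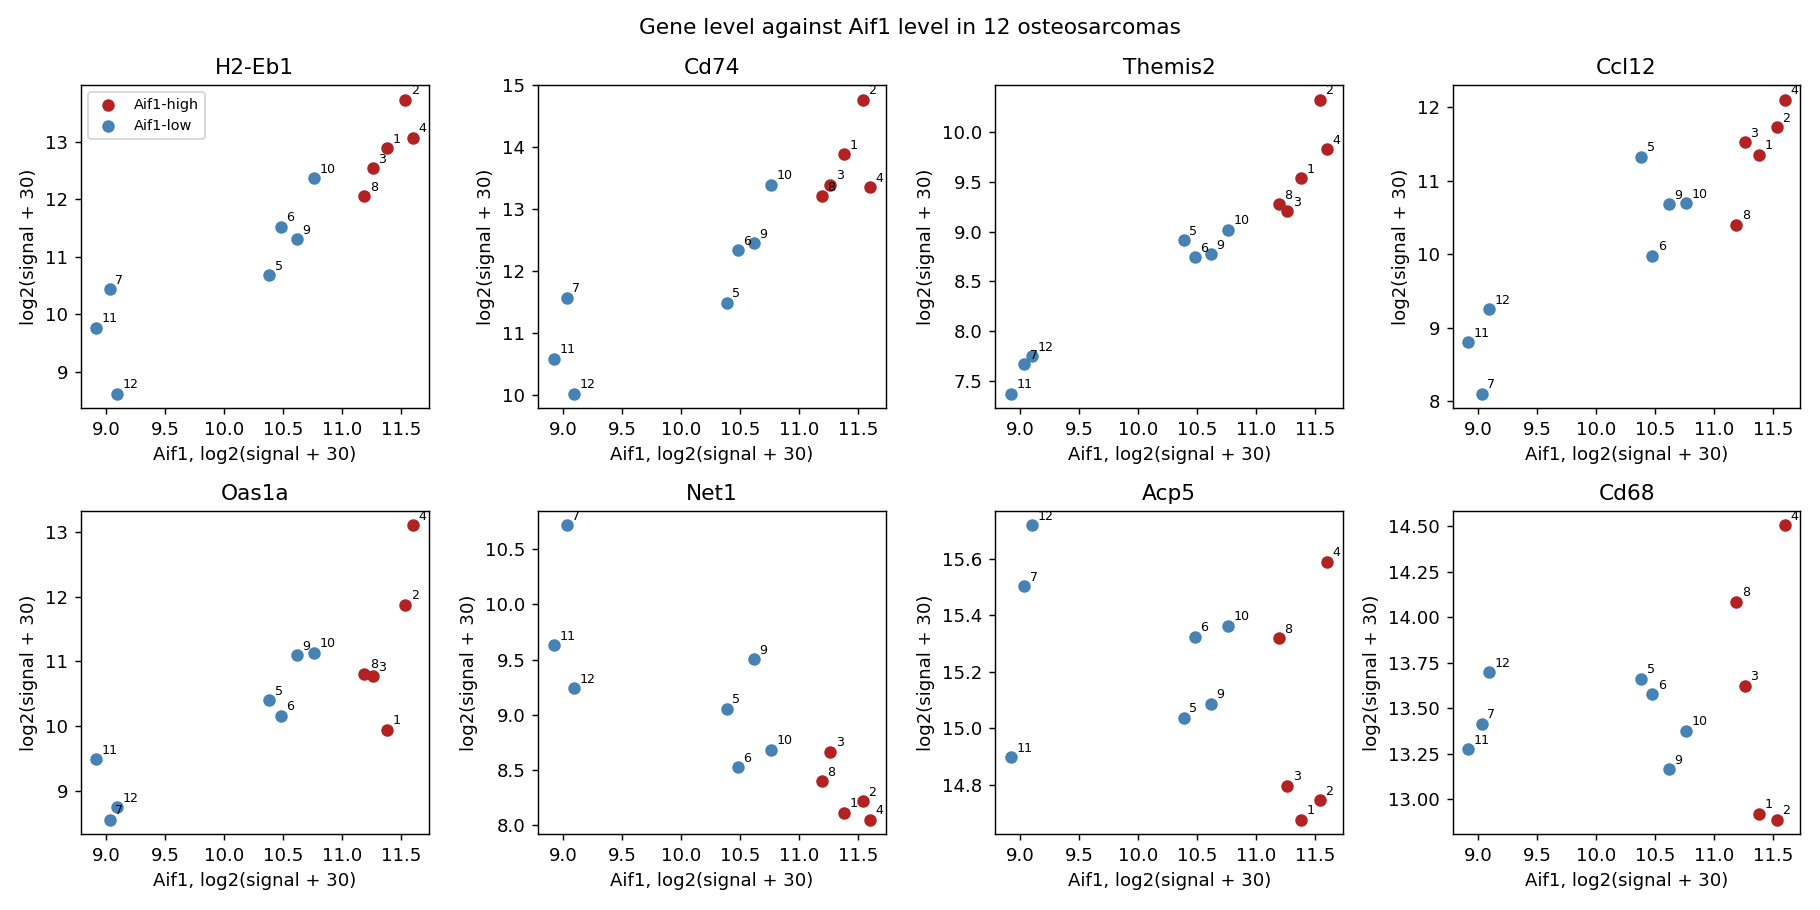
Level of 8 genes against that of Aif1, both as log2(signal + 30), in the 12 osteosarcomas, each point a numbered tumour, Aif1-high red and Aif1-low blue. H2-Eb1, Cd74, Themis2, Ccl12 and Oas1a climb from osteosarcomas 7, 11 and 12 to the Aif1-high tumours, Net1 declines, and Acp5 and Cd68 show slopes of -0.13 and 0.05.

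Outside the gene lists, the genes whose log2 level was most like that of Aif1 over the 12 osteosarcomas were Themis2, Sash3, Hcls1, Gpr65 and Ppfia4, with Pearson r of 0.97, 0.96, 0.96, 0.95 and 0.95. Over all genes tested the median r was 0.08. These values share 12 arrays scaled to a common target and describe likeness only. Leaving out osteosarcomas 11 and 7, the 2 tumours farthest from the median Aif1, r was 0.94, 0.93, 0.92, 0.92 and 0.91. Themis2, an adaptor of B cells and macrophages, had signals of 712, 1248, 560.3, 877 and 588 against 136 to 489 (median 398). Sash3, a lymphocyte adaptor, gave 563, 687, 466, 612 and 511 against 163 to 409 (median 302), and Hcls1, a cortactin-like actin regulator of blood cells, 814, 938, 743, 876 and 867 against 262 to 545 (median 373). These genes were chosen by their likeness to the values that made the groups, so their order by group is a description. All 5 were higher in the rhabdomyosarcoma than in any osteosarcoma.

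Measures of RNA and array quality overlapped between the groups. The ratio of 3′ to 5′ signal was 1.57 ± 0.17 (SD, n = 5) against 1.67 ± 0.28 (SD, n = 7) for beta-actin, with an exact permutation p of 0.5. For Gapdh it was 0.809 ± 0.055 (n = 5) against 0.851 ± 0.106 (n = 7), with an exact permutation p of 0.444. The array median was 89.0 ± 13.8 (n = 5) against 82.5 ± 14.0 (n = 7), with an exact permutation p of 0.419. The share of probe sets that reached a signal of 200 was 37.0% against 36.25% (exact permutation p 0.477); without osteosarcoma 9 the difference was 1.44 points with an exact permutation p of 0.0476. Identifiers of the Aif1-high tumours begin with c in 2, m in 1 and o in 2, and those of the Aif1-low tumours with c in 2 and m in 5; the labels do not say what the letters mean. Both o tumours are Aif1-high, so they add nothing to differences fitted with the letter as a block. Those rest on the c and m tumours. With the letter as a block the Adgre1 difference was 1.18, and among the c tumours alone it was 2.0. Limma called 0 genes in either fit (615 and 964 at an unadjusted p under 0.05).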

How the data were processed

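The authors deposited 1 array signal (intensity, linear scale) per probe set for 45101 probe sets on 14 arrays; GCOS made them, per the submitters' processing notes, with settings not given in the sources used here. Every array had the same mean, 500.0, once 2% of probe sets at each end were trimmed. Detection calls were not used, so dim signals may be background, and the number of arrays limits the precision. Here 64 control probe sets were left out, 34945 probe sets had 1 gene symbol and 932 several; those with several were left unnamed. Each gene was represented by its brightest probe set, and 11814 genes that reached 200 on any of the 14 arrays were tested, leaving out Aif1. Differences of log2(signal + 30) were tested with limma 3.58.1 in R 4.3.3 (residual df 10, Benjamini-Hochberg adjustment), checked on simulated data; single values by exact permutation with scipy 1.17.1. The errors given with ± are standard errors of the fit unless marked SD. No 2 arrays were identical (highest correlation 0.954), and samples were grouped by the title in GEO's labels.

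Of 627 listed genes 52 had no named probe set, 54 lay below the filter and 521 were tested. Members and lists were chosen with earlier results of these data known. The genes named were up to 6 of lowest p per direction, up to 2 of largest difference per list, a fixed set of marker genes and the 5 most like Aif1; others are said to be named after their values were seen, or follow from the counts of genes whose groups did not overlap or that passed with continuous Aif1. Alternatives changed the pseudocount, normalization, filter, probe sets, weights, split and samples.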

Additional observations from a re-analysis of the deposited data

Results flagged for a closer look

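Within the groups of 5 and 7 tumours, 208 sets of values were examined for a single tumour that stood far from the rest, and 11 were found, where chance gives about 1 in 20. In the Aif1-high group osteosarcoma 4 stood high for Spi1 at 2728.5, Gzmb at 746.2 and Tnfsf11 at 2092.4, and osteosarcoma 2 for Il10ra at 364.5. Matn3 was low in osteosarcoma 8 at 8.6. In the Aif1-low group osteosarcoma 6 stood high for the neutrophil genes S100a9 at 19608 and Ngp at 10656 and for Cytl1 at 654.3, and osteosarcoma 7 stood low for Casp4 at 150.9. Of the array measures, the median signal was high in osteosarcoma 9 at 110.2 among the Aif1-low tumours, and the share of probe sets of at least 200 was high in osteosarcoma 2 at 39.02% among the Aif1-high tumours.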

How the results depend on the processing

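With 12 tumours in groups of 5 and 7, limma called 0 genes on the split, and the same count was found without each osteosarcoma in turn (556 to 729 at an unadjusted p under 0.05), where the lowest adjusted p by limma was 0.0511, without osteosarcoma 5. The only alternative that called genes was Aif1 as a continuous term, with 12 higher at a slope of at least 1, and this fell to 0 without osteosarcomas 7, 11 and 12, an alternative chosen after seeing the data. The Adgre1 difference was 0.89 to 1.22 without each tumour in turn and 0.82 to 2.0 over all alternatives that compare groups; the slopes on continuous Aif1, which are no differences between groups, were 0.60 and, without osteosarcomas 7, 11 and 12, 0.73. No paired analysis was run, because the groups are different tumours sorted by Aif1 signal and the labels name no pairs. The fit on tumours with m identifiers was not run, since only 1 of them was Aif1-high; the fit on c identifiers alone, 2 against 2, was chosen after seeing the data. A low signal cannot be told from background, which limits dim genes such as Sost, Epha4 and Gpr160.

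Named genes gave 2661 alternative values, of which 2567 kept their direction and side of the threshold, 6 passed under the continuous term alone (Ccl12 1.15, Cd74 1.28, H2-Aa 1.13, H2-Eb1 1.39, Oas1a 1.05 and Oasl2 1.09) and 88, in 28 genes, changed sign; the cause was not tested. In 71 genes no value changed sign. With the 5 tumours of highest Adgre1 the differences were Alas2 0.72, Alpl 0.36, Atp2a1 1.26, Cd163 0.03, Cd68 -0.45, Cdkn1a 0.03, Cma1 0.03, Col1a1 0.05, Csf1r -0.08, Gadd45a 0.39, Ighm -0.26, Il34 0.14, Jchain -0.43, Lpl -0.16, Matn3 0.05, Mb 1.47, Ngp -1.19, Omd 0.69, P4ha1 0.63, P4ha2 0.96, S100a9 -1.34, Tpsb2 0.23 and Vwf 0.31. With the 6 highest against the 6 lowest Aif1 they were Alpl 0.06, Cd47 -0.08, Pecam1 0.20 and Vwf 0.07. With continuous Aif1 the slopes were Alpl 0.01, Atp2a1 0.11, Cd163 0.06, Cd47 -0.01, Cma1 0.10, Il34 0.02, Mb 0.36, Pecam1 0.03 and Vwf 0.16, and the slopes without osteosarcomas 7, 11 and 12 were Cd47 -0.12, Lpl -0.05, Mki67 -0.09 and Thy1 -0.07. With the identifier letter as a block, which rests on the c and m tumours, the differences were Alpl 0.18, Atp2a1 0.43, Cd163 0.75, Mb 0.84, Pecam1 0.11 and Slc2a4 0.08. In c identifiers alone they were Alpl 0.44, Atp2a1 1.14, Cd163 0.81, Cd68 -0.44, Col1a1 0.07, Gadd45a 0.15, Il34 0.40, Mb 2.22, S100a9 -0.73, Slc2a4 0.05 and Vwf 0.41. The mean of probe sets gave Col1a1 0.12 and quantile normalization Alpl 0.05. Without osteosarcomas 6 and 9 they were Atp2a1 0.49, Cd163 0.12, Cd47 -0.05, Mb 0.43 and Pecam1 0.02. Without each tumour in turn Alpl ran from -0.11 to 0.14, Cd163 from -0.28 to 0.27, Cd47 from -0.07 to 0.09, Cd68 from -0.07 to 0.33, Il34 from -0.46 to 0.07 and Pecam1 from -0.20 to 0.13.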

Other observations

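Several lists had medians whose sign depended on the setting, given here as values. Endothelial genes had a median of -0.09 on the split and 0.18 with the identifier letter as a block. Mature skeletal muscle genes had -0.43 on the split and ran from -0.87 to 1.73 over the alternatives that compare groups. The B and plasma cell median ran from -0.06 to 2.17, while the interferon median ran from 0.34 to 1.33 and the macrophage median from 0.73 to 1.63 over the same alternatives. With the 5 tumours of highest Adgre1 in place of the Aif1 split, 18 of 22 interferon genes and 25 of 34 Fc receptor and adaptor genes had a difference above 0, with medians of 0.34 and 0.32.

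The rhabdomyosarcoma had list levels above the highest osteosarcoma for macrophage identity, 11.48, and MHC class II, 12.50, while its osteoclast level was 8.90 against a lowest osteosarcoma level of 10.94. It is 1 array, so these are values with no test.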
